A study of Rattus norvegicus with 47 samples.

Results

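Potassium channel genes were measured in the medial prefrontal cortex of Wistar rats, an outbred laboratory strain, reared in isolation (Iso) or socially (Soc). The genes were chosen by name: every probe set whose single gene symbol in the platform annotation starts with Kcn, apart from Kcne2, was taken, and each gene was represented by its probe set of highest mean signal over all arrays. This gave 50 genes on 70 probe sets, of 10899 named genes on 20304 probe sets in all. By symbol, 8 genes belonged to Kcna and Kcnab, 3 to Kcnc, 3 to Kcnd, 12 to Kcnj, 6 to Kcnk, 2 to Kcnq and 16 to other names such as Kcnh, Kcnip, Kcnma and Kcns. Total RNA was hybridised to 1-colour Affymetrix arrays, on which a probe set is a group of short probes against one transcript, and the values are log2 signals.

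The groups were Iso and Soc rats at postnatal day 30, 40, 60 and 80 (P30, P40, P60, P80), which covers adolescence and early adulthood. There were 6 arrays in each group except Iso P40, which had 5. Arrays 3 and 4 of Iso P30 lay 0.116 log2 units apart (root mean square), against 0.175 or more for the other pairs within groups, and were averaged and counted as 1 sample, so Iso P30 had 5 samples and 46 samples entered the fit. No group carried a transgene or received a drug according to the labels; sex, the age at which isolation began, and whether each array came from its own rat are not given in the sources used here. The p-values therefore measure only how far these samples scatter, which may be technical scatter. Levels of different genes are not compared here, since probe sets differ in how strongly they bind.

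Potassium channels let potassium leave or enter the cell and so set the resting potential, the shape of the action potential and the firing rate of neurons. Voltage-gated families (Kcna, Kcnc, Kcnd, Kcnh, Kcnq) open on depolarisation, inward rectifiers (Kcnj) hold the membrane near rest or respond to G proteins and ATP, and two-pore channels (Kcnk) carry background current. Other Kcn genes encode channels gated by calcium or sodium, silent subunits that change their partners, and auxiliary subunits.

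Between groups, 33 of the 50 genes were tested: a probe set had to reach a mean log2 signal of 5.72, which 40 percent of the 20249 non-control probe sets did not reach. Kcnh2 lay just inside this limit at 5.73 and Kcna5 just outside at 5.51. Differences are Iso minus Soc on the log2 scale, and a gene was called where limma's p-value, adjusted by the Benjamini-Hochberg method over all 12149 tested probe sets, was below 0.05.

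Several properties of the arrays moved with the groups. The mean ratio of the 3' to the 5' Gapdh signal, a measure of how complete the labelled RNA was, was 1.34 in Iso and 1.52 in Soc at P30. It was 1.87 in Iso and 1.61 in Soc at P40, 1.36 in Iso and 2.03 in Soc at P60, and 1.57 in Iso and 1.89 in Soc at P80. At P60 its SD within the groups was 0.039 in Iso and 0.154 in Soc. Because the ratio moved with rearing, a fit with the ratio as a covariate cannot fully separate the 2. A call lost in that fit need not mean a smaller difference. Over the mean profile of the 33 genes, Iso P60 lay nearer to Soc P40 (0.109) than to Soc P60 (0.258), and Iso P80 lay nearer to Soc P60 (0.130) than to Soc P80 (0.302). Over all tested probe sets the corresponding distances were 0.170 against 0.297 for Iso P60 and 0.167 against 0.263 for Iso P80. There Soc P80 lay nearest to Iso P40 (0.246, against 0.263 to Iso P80), while over the 33 genes it lay nearest to Soc P60 (0.269). Whether arrays were exchanged between groups was not tested. All 7 markers of neurons and 5 of the 6 measured markers of cortical excitatory neurons passed the signal limit. The summed signal of the excitatory markers ran between 2757 and 2915 in Iso and between 3343 and 3596 in Soc at P40, between 3067 and 3225 in Iso and between 2658 and 2761 in Soc at P60, and between 2869 and 3044 in Iso and between 3227 and 3481 in Soc at P80. That sum thus lay higher in Iso at P60 and lower at P40 and P80 without overlap, an order that the called differences of Kcnc4, Kcnk1 and Kcnmb4 shared. Of the 5 kept, 1 was called higher and 2 lower in Iso at P40, 1 and 1 at P60, and 1 and 2 at P80. Of all tested probe sets 28.3%, 53.1% and 47.7% were called at those ages. The median difference of the 5 markers was -0.09 at P40, -0.10 at P60 and 0.04 at P80. At P60 and P80 this median had the opposite sign to the difference of the sum, in which the brightest markers weigh most. Other summed marker signals lay lower in Iso without overlap. They were those of neurons (8393 to 8962 in Iso, 9170 to 9670 in Soc), inhibitory neurons (3243 to 3368 in Iso, 3444 to 3644 in Soc) and astrocytes (12610 to 13540 in Iso, 14190 to 14530 in Soc) at P30. At P40 they were those of microglia (1244 to 1317 in Iso, 1452 to 1622 in Soc) and endothelial cells and pericytes (860.4 to 914.6 in Iso, 918.7 to 1035 in Soc), and at P60 those of oligodendrocyte precursors (1074 to 1177 in Iso, 1282 to 1388 in Soc). Each sum takes in all measured markers, also those below the signal limit. At P30, 1 of the 7 kept neuron markers was called higher and 2 lower (19.9% of all tested probe sets were called). For inhibitory neurons it was 1 and 3 of 7, and for astrocytes 0 and 6 of 9. At P40 it was 1 and 4 of 7 for microglia and 0 and 1 of 5 for endothelial cells and pericytes. The median of those 5 was 0.06, against the sign of the sum. At P60 it was 1 and 2 of 3 for precursors. Ttr, the 1 marker of the choroid plexus and ependyma of 4 measured that passed the signal limit, differed by -3.11 at P30 and by 1.97 at P40. The part of these cell types in the results was not tested. Of the 9 oligodendrocyte markers 8 were called lower in Iso at P40, beside 14.6% of all tested probe sets. Their summed signals lay between 8177 and 9155 in Iso and between 9882 and 10880 in Soc.

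Across the 4 ages, 27 of the 33 genes were called at 1 age or more, and 13 of them were called higher in Iso at one age and lower at another. Kcnab1, Kcnc4, Kcnj6 and Kcnmb4 were called at all 4 ages. By their brightest probe sets Kcna4, Kcnab2, Kcnd3, Kcng2, Kcnh2 and Kcnj11 were called at none. At P30 8 genes were called, 2 higher and 6 lower in Iso, which is 24.2% of the 33, beside 19.9% of all tested probe sets (7.61% higher and 12.3% lower). That count was 5 with the Gapdh ratio as a covariate, 4 without Iso P30 array 1 and 5 without Iso P30 array 2 or 5 or without Soc P30 array 1, 2 or 4. At P40 12 were called, 7 higher and 5 lower (36.4%, beside 28.3%, of which 13.8% higher and 14.6% lower). At P60 18 were called, 11 higher and 7 lower (54.5%, beside 53.1%, of which 23.7% higher and 29.3% lower). At P80 17 were called, 5 higher and 12 lower (51.5%, beside 47.7%, of which 23.5% higher and 24.2% lower). The shares of potassium channel genes called thus lay near those of the whole array at each age. The median difference over the 33 genes was -0.01 at P30, 0.02 at P40, -0.02 at P60 and -0.05 at P80, against 0.00, 0.01, -0.02 and 0.00 over all tested probe sets.

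Large differences were few. No gene passed both the test and 0.5 log2 units at P30 or P40, where 1.12% and 2.96% of all tested probe sets did. At P60 the 1 gene past both limits was Kcnk1 (3.03% of the 33, beside 8.24%). At P80 the 5 genes past both were Kcnj6, Kcna6, Kcna1, Kcnip3 and Kcnt1, all lower in Iso (15.2%, beside 5.4%). The samples of the rearings did not overlap for 2 genes at P30, 5 at P40, 9 at P60 and 9 at P80, which is 6.06%, 15.2%, 27.3% and 27.3% of the 33, beside 10.6%, 13.0%, 30.8% and 24.9% of all tested probe sets.

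**Figure D1:**
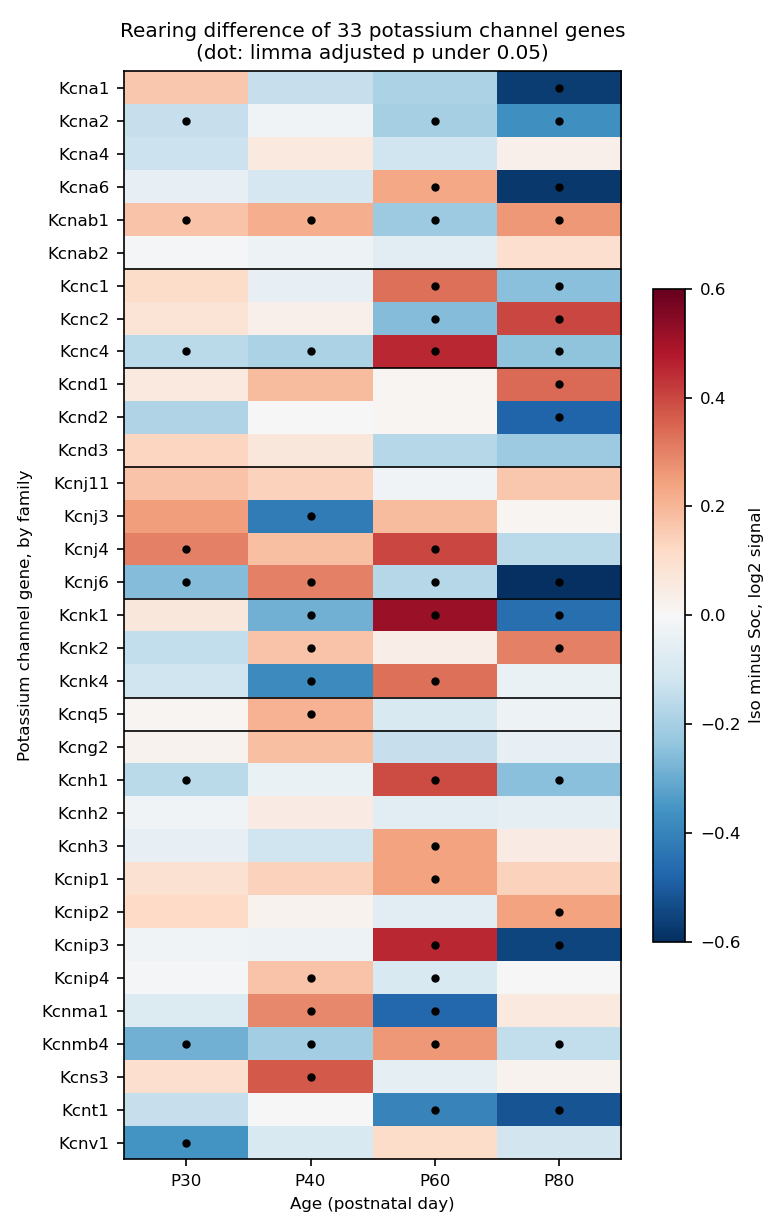
Heat map of the Iso minus Soc difference (log2 signal, colour from blue, lower in Iso, to red, higher in Iso) of the 33 tested potassium channel genes, in rows by family, at P30, P40, P60 and P80 in columns; a dot marks a limma adjusted p under 0.05. The dots number 8, 12, 18 and 17 from P30 to P80, and the rows of Kcnc4, Kcnh1 and Kcnip3 are red at P60 and blue at P80.

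The rearing difference depended on age for most of the genes. In a moderated F test of the interaction of rearing with age, 25 of the 33 genes were called, which is 75.8%, beside 72.2% of all tested probe sets. The 8 smallest adjusted p-values belonged to Kcnj6 (1.74e-14), Kcna6 (3.89e-11), Kcnc4 (5.18e-11), Kcnma1 (2.79e-10), Kcnh1 (1e-09), Kcnmb4 (1.43e-09), Kcnip3 (2.04e-09) and Kcnc2 (8.01e-09). Between P40 and P60 the rearing difference itself changed in 18 genes, 10 upward and 8 downward (54.5%, beside 53.8%, of which 24.5% upward and 29.3% downward). Averaged over the 4 ages with equal weights, the difference was called for 13 genes, 6 higher and 7 lower in Iso (39.4%, beside 28.6%, of which 12.4% higher and 16.2% lower), or for 6, 2 higher and 4 lower, with the Gapdh ratio as a covariate. None of these averages reached 0.5 log2 units, which 0.148% of all tested probe sets passed, and the most negative was that of Kcnt1 at -0.27. With the Gapdh ratio as a covariate that Kcnt1 average was -0.11 (limma adjusted p = 0.522), and on its second probe set it was -0.08 (adjusted p = 0.251).

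**Figure D2:**
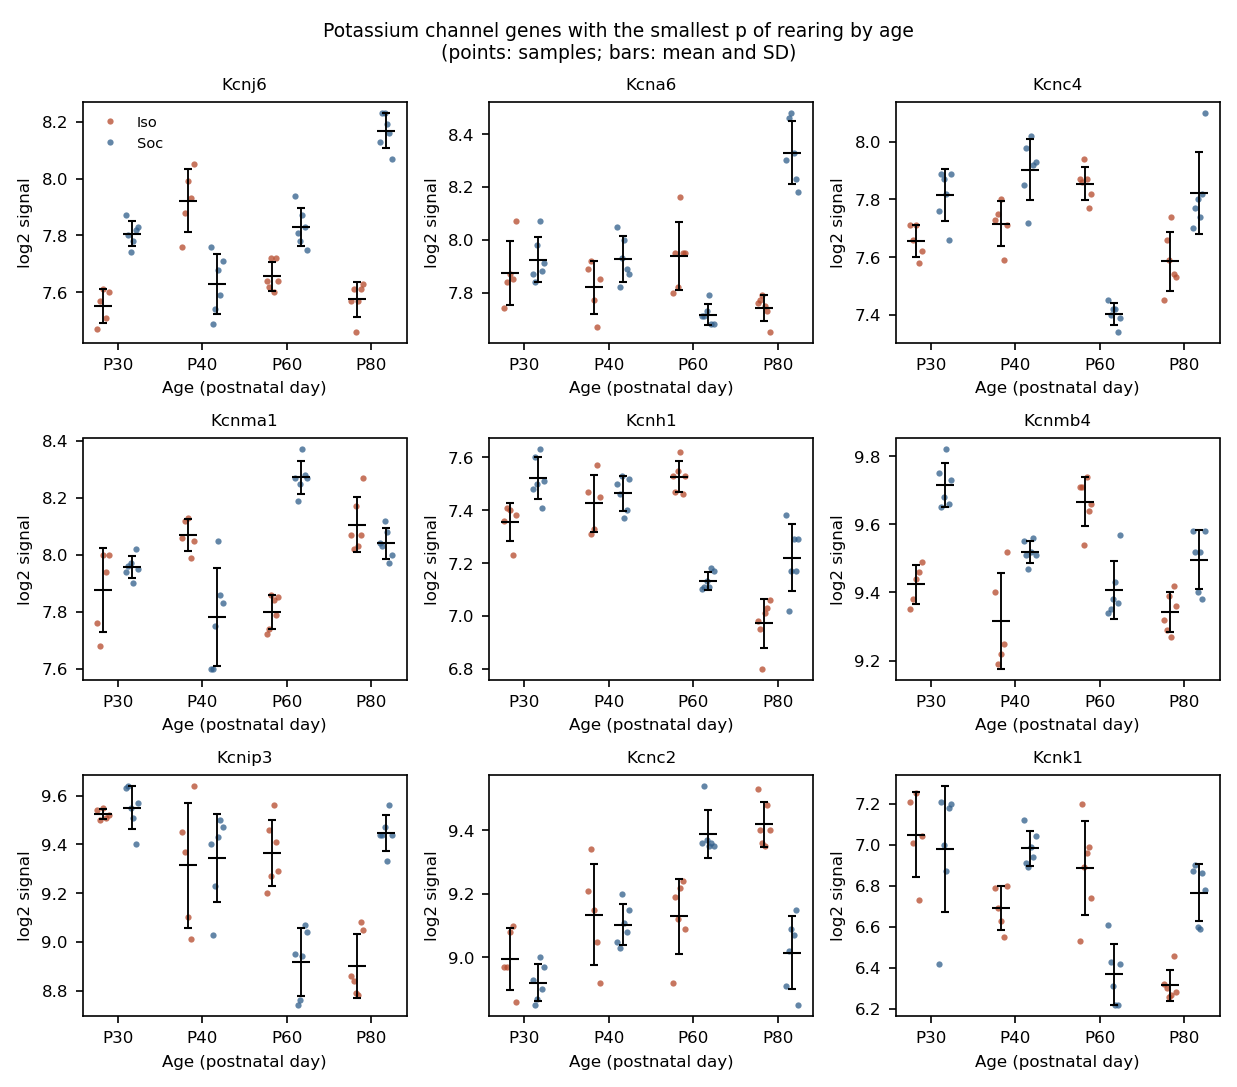
Log2 signal of each sample (points) with the group mean and SD (bars) at P30, P40, P60 and P80, Iso in red at the left and Soc in blue at the right of each pair, for the 9 potassium channel genes with the smallest interaction p. Iso lies below Soc at P80 for Kcnj6 and Kcna6 without overlap, and Kcnc4 and Kcnh1 lie above Soc at P60 without overlap.

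The putative promoters of 36 of the 50 genes could be matched by gene number to the RefSeq rat table of assembly GRCr8, each 300 bases long and spanning the gene's start. Those of Kcnc4, Kcnip3, Kcnh1 and Kcnma1 are printed as examples: the first 3 genes were higher in Iso at P60 and lower at P80, an order that Kcna6, Kcnc1, Kcnk1 and Kcnmb4 shared, and Kcnma1 was lower at P60. They were searched on both strands for the GC box GGGCGG, the cAMP response element TGACGTCA and its shorter core TGACG, the Egr sites GCGGGGGCG and GCGTGGGCG and the TATA box TATAAA, and capitals mark each match on either strand. They lie at chr2:197788384-197788683 on the minus strand (Kcnc4), chr3:135195361-135195660 on the minus strand (Kcnip3), chr13:106252966-106253265 on the plus strand (Kcnh1) and chr15:351675-351974 on the plus strand (Kcnma1), and are written 5′ to 3′ in the direction of the gene.
Kcnc4: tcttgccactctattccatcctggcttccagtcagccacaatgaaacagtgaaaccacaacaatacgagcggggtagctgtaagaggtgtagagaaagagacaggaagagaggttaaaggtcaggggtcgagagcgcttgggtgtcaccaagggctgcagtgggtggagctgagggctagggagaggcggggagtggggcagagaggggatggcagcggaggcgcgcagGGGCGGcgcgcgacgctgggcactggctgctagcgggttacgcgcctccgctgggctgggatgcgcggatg
Kcnip3: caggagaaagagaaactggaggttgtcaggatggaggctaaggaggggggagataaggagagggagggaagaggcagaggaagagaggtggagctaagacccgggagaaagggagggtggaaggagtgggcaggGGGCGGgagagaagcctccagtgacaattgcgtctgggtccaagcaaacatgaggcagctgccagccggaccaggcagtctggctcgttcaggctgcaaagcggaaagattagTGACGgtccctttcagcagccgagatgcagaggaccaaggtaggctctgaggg
Kcnh1: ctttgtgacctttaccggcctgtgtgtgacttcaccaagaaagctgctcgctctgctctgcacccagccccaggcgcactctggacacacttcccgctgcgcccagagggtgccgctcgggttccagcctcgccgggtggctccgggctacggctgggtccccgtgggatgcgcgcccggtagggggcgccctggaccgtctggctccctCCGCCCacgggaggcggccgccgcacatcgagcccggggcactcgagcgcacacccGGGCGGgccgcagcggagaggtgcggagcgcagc
Kcnma1: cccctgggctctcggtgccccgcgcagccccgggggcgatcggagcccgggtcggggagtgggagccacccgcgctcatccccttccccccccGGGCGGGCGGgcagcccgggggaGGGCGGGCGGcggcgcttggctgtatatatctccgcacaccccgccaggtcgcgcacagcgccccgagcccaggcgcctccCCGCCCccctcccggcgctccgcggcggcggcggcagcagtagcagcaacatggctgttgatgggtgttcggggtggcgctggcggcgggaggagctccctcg
The GC box occurred 1 time in the window of Kcnc4, 1 time in that of Kcnip3, 2 times in that of Kcnh1 and 5 times in that of Kcnma1, where 2 pairs of matches overlap. Kcnip3 also holds 1 match to TGACG. Among the 36 promoters 22 hold a GC box (61.1%, beside 34.9% of the 27457 promoters in the table), 7 hold TGACG (19.4%, beside 22.0%), 2 hold an Egr site (5.56%, beside 3.31%), and none holds TGACGTCA (beside 1.91%) or TATAAA (beside 14.3%). Their median GC content was 62.0%, beside 52.3% of all promoters in the table. A match is a description of the letters in the window.

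Kcna1, Kcna2 and Kcna6 encode voltage-gated subunits of axons and nerve terminals that limit repetitive firing, and all 3 were lower in Iso at P80. Kcna6 (probe set 1393124_at) had 7.65, 7.76 and 7.79 in Iso at P80 (lowest, median and highest of 6 samples), against 8.18, 8.31 and 8.48 in Soc. Every Iso sample lay below every Soc sample. The difference was -0.58 ± 0.055 (SE), a 1.5-fold lower signal in Iso (limma adjusted p = 4.03e-12). At P60 Kcna6 differed the other way, with 7.80, 7.95 and 8.16 in Iso and 7.68, 7.71 and 7.79 in Soc. These groups did not overlap either, and the difference was 0.23 (adjusted p = 0.000638), or 0.10 with the Gapdh ratio as a covariate (adjusted p = 0.6). No difference was called for Kcna6 at P30 (-0.05) or P40 (-0.10).

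Kcna1 (1370545_at) had 5.82, 6.11 and 6.25 in Iso at P80, against 6.42, 6.67 and 6.73 in Soc. The groups did not overlap, and the Iso signal fell by 0.57 ± 0.15 (SE), 1.48-fold, with an adjusted p of 0.00218. With the Gapdh ratio as a covariate the difference was -0.50 (adjusted p = 0.0683). Kcna2 (1379092_at) had 8.82, 8.90 and 8.99 in Iso at P80, against 9.13, 9.28 and 9.37 in Soc, again without overlap (-0.37, adjusted p = 7.71e-09). It was also lower in Iso at P30, with 8.50, 8.56, 8.56, 8.51 and 8.61 in Iso and 8.57, 8.72 and 8.78 in Soc, where the ranges overlap (-0.14, adjusted p = 0.0312). This P30 call of Kcna2 was lost with quantile normalization (-0.12, adjusted p = 0.0608) and without Iso array 1 or 5 or Soc array 1, 3, 4 or 6 (adjusted p = 0.0533 to 0.081). At P60 Kcna2 had 8.74, 8.78 and 8.86 in Iso, against 8.85, 9.01 and 9.07 in Soc (-0.20, adjusted p = 0.000391). The highest Iso sample there lay just above the lowest Soc sample.

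Kcnab1 encodes a cytoplasmic auxiliary subunit that attaches to Kcna channels and speeds their inactivation. Its brightest probe set (1378738_at) was higher in Iso at P30, P40 and P80 and lower at P60. At P80 it had 8.65, 8.85 and 8.99 in Iso, against 8.48, 8.60 and 8.63 in Soc. The groups did not overlap, and the difference was 0.26 (adjusted p = 9.41e-05), while with the Gapdh ratio as a covariate it was 0.07 (adjusted p = 0.409). At P40 it had 8.71, 8.78, 8.71, 8.64 and 8.59 in Iso, against 8.25, 8.49 and 8.59 in Soc (0.22, adjusted p = 0.00264). The lowest Iso sample stood level with the highest Soc sample to 2 decimals. At P60 it had 8.39, 8.41 and 8.65 in Iso, against 8.51, 8.71 and 8.76 in Soc, and the groups overlapped (-0.22, adjusted p = 0.000764). At P30 it had 8.59, 8.56, 8.70, 8.51 and 8.44 in Iso, against 8.28, 8.40 and 8.50 in Soc, with overlap (0.17, adjusted p = 0.0325). The P30 call of Kcnab1 was lost with the Gapdh ratio as a covariate (0.06, adjusted p = 0.528) and without Iso array 1 or 2, the averaged Iso arrays 3 and 4, or Soc array 1, 2 or 5 (adjusted p = 0.0522 to 0.118). Kcnab2, a related subunit, and Kcna4, an A-type subunit, were called at no age by their brightest probe sets. The second Kcnab2 probe set was called at P40, P60 and P80.

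Kcnc genes encode subunits that close quickly and allow fast spiking. All 3 measured members passed the test at P60 and at P80, in opposite directions at the 2 ages. Kcnc4 (1393163_at) had 7.77, 7.86 and 7.94 in Iso at P60, against 7.34, 7.41 and 7.45 in Soc. Every Iso sample was higher, and the difference was 0.45 ± 0.054 (SE), 1.37-fold (adjusted p = 1.4e-09). At P80 Kcnc4 had 7.45, 7.56 and 7.74 in Iso, against 7.70, 7.78 and 8.10 in Soc, with slight overlap (-0.24, adjusted p = 0.000306). It was also lower in Iso at P30, where 7.71, 7.66, 7.71, 7.58 and 7.62 in Iso stood against 7.66, 7.84 and 7.89 in Soc (-0.16, adjusted p = 0.0379). At P40 the Iso samples had 7.73, 7.75, 7.80, 7.59 and 7.71, against 7.72, 7.92 and 8.02 in Soc (-0.19, adjusted p = 0.0109). The ranges overlapped at both younger ages. The P30 call of Kcnc4 was lost with the Gapdh ratio as a covariate (-0.15, adjusted p = 0.114), with quantile normalization (adjusted p = 0.0503), with no filter on signal (adjusted p = 0.0558) or with only the P30 groups (adjusted p = 0.0596), and without Iso array 2, 5 or 6 or Soc array 2, 3, 4 or 6 (adjusted p = 0.0554 to 0.0991).

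Kcnc2 (1370439_a_at), a subunit prominent in cortical interneurons, moved opposite to Kcnc4. At P60 it had 8.92, 9.16 and 9.24 in Iso, against 9.35, 9.36 and 9.54 in Soc. At P80 it had 9.35, 9.40 and 9.53 in Iso, against 8.85, 9.05 and 9.15 in Soc. The groups did not overlap at either age, and the differences were -0.26 (adjusted p = 8.59e-05) and 0.40 (1.32-fold, adjusted p = 3.63e-08). Of the 7 kept markers of inhibitory neurons, 4 were called higher and 2 lower in Iso at P60, beside 53.1% of all tested probe sets called. At P80 4 of these markers were called higher and 1 lower, beside 47.7%. Their median difference was 0.16 at P60 and 0.19 at P80. Their summed signal ran between 3217 and 3432 in Iso and between 3390 and 3604 in Soc at P60, and between 3684 and 3970 in Iso and between 3226 and 3540 in Soc at P80. The median sum at P60 was 3332 in Iso and 3459 in Soc, opposite in direction to the median marker difference. The part of those cells in the Kcnc2 result was not tested, and in tissue RNA fewer cells of a type cannot be told apart from less RNA per cell. Kcnc1, a fast-spiking subunit, was higher in Iso at P60 (0.33, adjusted p = 0.00124) and lower at P80 (-0.25, adjusted p = 0.0169). With the Gapdh ratio as a covariate Kcnc1 passed at neither age (0.26, adjusted p = 0.335 at P60, and -0.28, adjusted p = 0.0729 at P80), and without Iso P80 array 2 its P80 value was -0.21 (adjusted p = 0.0502).

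Kcnd genes encode A-type channels of dendrites and cell bodies, and Kcnip genes encode calcium-binding proteins that attach to them. By its brightest probe set no Kcnd gene was called before P80, while the second Kcnd2 probe set (1387476_at) was higher in Iso at P40 (0.28, adjusted p = 0.0142) and P60 (0.37, adjusted p = 0.000287) and lower at P80 (-0.31, adjusted p = 0.00206). Kcnd2 (1379863_at) had 7.90, 8.13 and 8.34 in Iso at P80, against 8.24, 8.65 and 8.74 in Soc. The highest Iso samples overlapped the lowest Soc ones, and Kcnd2 fell by 0.48 ± 0.084 (SE), 1.40-fold (adjusted p = 5.82e-06). Kcnd2 had the smallest interaction p of the Kcnd genes (0.000908). Kcnd1 (1388173_at) had 5.85, 5.96 and 6.25 in Iso at P80, against 5.37, 5.68 and 5.90 in Soc, with overlap (0.34, adjusted p = 0.0158). Without Soc P80 array 3 the Kcnd1 difference was 0.29 with an adjusted p of 0.0548. Kcnd3 was called at no age.

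Kcnip3, which encodes a calcium sensor also known to repress transcription, was called in opposite directions at P60 and P80. At P60 its probe set (1376225_at) had 9.20, 9.35 and 9.56 in Iso, against 8.74, 8.94 and 9.07 in Soc. Its P80 signals were 8.78, 8.85 and 9.08 in Iso, against 9.33, 9.44 and 9.56 in Soc. Every Iso sample was higher at P60 and every one was lower at P80. The differences were 0.45 ± 0.077 (SE, adjusted p = 3.91e-06) and -0.55 ± 0.077 (SE, adjusted p = 9.95e-08). Differences were near 0 at P30 (-0.02) and P40 (-0.03). Kcnip2 (1373987_at), a partner of Kcnd channels in heart and forebrain, had 8.17, 8.27 and 8.36 in Iso at P80, against 7.83, 8.07 and 8.17 in Soc. The lowest Iso sample stood level with the highest Soc sample, and the difference was 0.24 (adjusted p = 0.000137), or 0.11 with the Gapdh ratio as a covariate (adjusted p = 0.193). Kcnip1 was higher in Iso at P60 (0.24, adjusted p = 0.00938), and Kcnip4 was higher at P40 (0.17, adjusted p = 0.000697) and lower at P60 (-0.09, adjusted p = 0.0383). The P60 call of Kcnip4 was lost with the covariate (-0.11, adjusted p = 0.346), with quantile normalization (-0.05, adjusted p = 0.201) or with no filter on signal (adjusted p = 0.059), and without any 1 of Iso arrays 3, 4 and 5 or Soc arrays 1, 2, 5 and 6 (adjusted p = 0.051 to 0.0874).

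Of the 12 inward rectifier genes 4 were tested. Kcnj6 and Kcnj3 encode subunits of the GIRK channels, which open when G proteins are freed by receptors for GABA, serotonin or opioids. Kcnj6 (1369035_a_at) was called at all 4 ages. At P30 it had 7.47, 7.57, 7.61, 7.51 and 7.60 in Iso, against 7.74, 7.81 and 7.87 in Soc. At P40 it had 7.76, 7.88, 7.99, 7.93 and 8.05 in Iso, against 7.49, 7.64 and 7.76 in Soc. Iso was lower without overlap at P30 (-0.26, adjusted p = 9.19e-05) and higher at P40, where 1 sample of either group stood at 7.76 (0.30, adjusted p = 5.39e-06). At P60 Kcnj6 had 7.60, 7.64 and 7.72 in Iso, against 7.75, 7.82 and 7.94 in Soc (-0.17, adjusted p = 0.00152). At P80 it had 7.46, 7.59 and 7.63 in Iso, against 8.07, 8.18 and 8.23 in Soc. Neither of these ages showed overlap, and the P80 signal fell by 0.60 ± 0.046 (SE), 1.51-fold (adjusted p = 8.93e-15).

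Kcnj3 (1369741_at) was called at P40, where it had 5.68, 5.96, 5.77, 5.79 and 6.16 in Iso, against 6.21, 6.27 and 6.49 in Soc. Every Iso sample was lower, and the difference was -0.42 ± 0.13 (SE), 1.34-fold (adjusted p = 0.0102). Kcnj4, an inward rectifier of forebrain neurons, was called at P30 and P60, with higher signals in Iso. Its probe set (1371114_at) had 7.02, 7.15 and 7.21 in Iso at P60, against 6.55, 6.68 and 6.96 in Soc, without overlap (0.40, adjusted p = 0.000448). At P30 it had 7.46, 7.32, 6.79, 6.97 and 7.29 in Iso, against 6.54, 6.96 and 7.05 in Soc, with overlap (0.30, adjusted p = 0.0316). With the Gapdh ratio as a covariate these Kcnj4 differences were 0.32 at P30 (adjusted p = 0.0525) and 0.49 at P60 (adjusted p = 0.0832). The P30 call was also lost with all 47 arrays counted apart (0.23, adjusted p = 0.0861), with only the P30 groups (adjusted p = 0.106) and without Iso array 1, 2 or 6 or Soc array 1 or 5 (adjusted p = 0.0767 to 0.144). Kcnj11, the pore of ATP-sensitive channels, was called at no age.

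Two-pore genes carry background current that can be changed by stretch, lipids and acid. Kcnk1 (1369500_at) had the largest rise of the tested genes at P60, with 6.53, 6.92 and 7.20 in Iso, against 6.22, 6.36 and 6.61 in Soc. The lowest Iso sample lay within the Soc range, and the difference was 0.52 ± 0.10 (SE), 1.43-fold (adjusted p = 2.97e-05). Kcnk1 was lower in Iso at P40 (6.79, 6.69, 6.63, 6.55 and 6.80, against 6.89, 6.97 and 7.12 in Soc) and at P80 (6.26, 6.29 and 6.46, against 6.59, 6.82 and 6.90 in Soc). The groups did not overlap at those ages, and the differences were -0.29 (adjusted p = 0.0361) and -0.45 (adjusted p = 0.000258). The P40 call of Kcnk1 was lost with the Gapdh ratio as a covariate (-0.33, adjusted p = 0.062) and without Iso array 2, 3 or 4 or Soc array 1, 4 or 6 (adjusted p = 0.054 to 0.0967). Kcnk1 had the smallest interaction p of the 3 tested Kcnk genes (4.06e-07).

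Kcnk2 (1370342_at), a stretch- and lipid-gated channel, had 7.31, 7.44 and 7.54 in Iso at P80, against 6.93, 7.14 and 7.23 in Soc. Every Iso sample was higher, and the difference was 0.30 (adjusted p = 5.12e-05). It was also called higher at P40 (0.17, adjusted p = 0.034), a call lost with only the P40 groups (adjusted p = 0.0693) and without Iso array 2, 3 or 4 or Soc array 4, 5 or 6 (adjusted p = 0.0607 to 0.121). Kcnk4 (1370110_at), a related mechanosensitive channel, had 6.06, 6.26, 5.93, 6.09 and 5.73 in Iso at P40, against 6.24, 6.41 and 6.55 in Soc. The highest Iso sample lay just inside the Soc range (-0.38, adjusted p = 0.0185). At P60 the sign was reversed (0.33, adjusted p = 0.0168). The P40 call of Kcnk4 was lost without Iso P40 array 5 (adjusted p = 0.0735), and with the Gapdh ratio as a covariate neither call was kept (-0.31, adjusted p = 0.146 at P40, and 0.14, adjusted p = 0.729 at P60). The P60 call of Kcnk4 was also lost with quantile normalization (0.27, adjusted p = 0.0674). Of the 2 Kcnq genes, Kcnq5 (1379510_at), an M-current subunit, was tested. At P40 it had 9.06, 9.30, 9.10, 9.06 and 9.04 in Iso, against 8.80, 8.87 and 9.08 in Soc, with overlap (0.21, adjusted p = 0.00276). Its interaction p was 0.00318.

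Among the other genes, Kcnma1 encodes the pore of the calcium- and voltage-gated BK channel and Kcnmb4 its auxiliary subunit of neurons. They moved in opposite directions at P40 and P60. Kcnma1 (1372929_at) had 7.72, 7.81 and 7.86 in Iso at P60, against 8.19, 8.27 and 8.37 in Soc. All 6 Iso samples were lower, and Kcnma1 fell by 0.47 ± 0.055 (SE), 1.39-fold (adjusted p = 1.11e-09). At P40 Kcnma1 had 8.06, 8.12, 8.13, 7.99 and 8.05 in Iso, against 7.60, 7.79 and 8.05 in Soc, with overlap (0.29, adjusted p = 0.000159). Its rearing difference changed by -0.76 ± 0.080 (SE) between P40 and P60 (adjusted p = 6.57e-11).

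Kcnmb4 (1387318_at) had 9.35, 9.38, 9.44, 9.46 and 9.49 in Iso at P30, against 9.65, 9.70 and 9.82 in Soc. The groups did not overlap (-0.29, adjusted p = 1.11e-05). At P40 it had 9.40, 9.19, 9.22, 9.25 and 9.52 in Iso, against 9.47, 9.52 and 9.56 in Soc (-0.21, adjusted p = 0.00088). At P60 it had 9.54, 9.68 and 9.74 in Iso, against 9.34, 9.37 and 9.57 in Soc (0.26, adjusted p = 5.29e-06). The ranges overlapped at both ages. At P80 it had 9.27, 9.34 and 9.42 in Iso, against 9.38, 9.52 and 9.58 in Soc, with overlap (-0.15, adjusted p = 0.00429). With the Gapdh ratio as a covariate the P60 difference of Kcnmb4 was 0.61 and its P80 difference was 0.01.

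Kcnh1 (1368061_at), a voltage-gated channel of the ether-à-go-go family, followed Kcnc4. At P60 it had 7.46, 7.53 and 7.62 in Iso, against 7.10, 7.12 and 7.18 in Soc. The P80 signals were 6.80, 6.99 and 7.06 in Iso, against 7.02, 7.23 and 7.38 in Soc. The P60 groups lay apart (0.39 ± 0.053, SE, adjusted p = 2.34e-08) and the P80 groups overlapped slightly (-0.25, adjusted p = 0.000102). At P30 it had 7.36, 7.41, 7.40, 7.23 and 7.38 in Iso, against 7.41, 7.50 and 7.63 in Soc (-0.16, adjusted p = 0.0325). The P30 call of Kcnh1 was lost with the Gapdh ratio as a covariate (-0.14, adjusted p = 0.129), with only the P30 groups (adjusted p = 0.0781) and without Iso array 1 or 5 or Soc array 2 or 4 (adjusted p = 0.0569 to 0.117). Kcnh3, of the same family, was higher in Iso at P60 without overlap (0.24, adjusted p = 6.59e-05, or 0.29 with an adjusted p of 0.0508 with the covariate). Kcnh2, another relative, was called at no age.

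Kcnv1 and Kcns3 encode silent subunits, which form no channel alone and alter the channels they join. Kcnv1 (1387881_at) had 8.30, 8.28, 8.52, 8.59 and 8.64 in Iso at P30, against 8.62, 8.88 and 8.92 in Soc. The highest Iso sample lay just above the lowest Soc sample, and the difference was -0.36, the most negative of the 33 genes at that age (adjusted p = 0.000205). Kcns3 (1368751_at) had 6.92, 6.88, 7.09, 6.81 and 7.03 in Iso at P40, against 6.33, 6.60 and 6.71 in Soc. Every Iso sample was higher, and the difference was 0.37, the largest rise at that age (adjusted p = 0.000234).

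Kcnt1 (1395102_at), a sodium-activated channel, had 5.99, 6.22 and 6.41 in Iso at P60, against 6.32, 6.58 and 6.94 in Soc (-0.40, adjusted p = 0.00631). At P80 it had 5.77, 6.38 and 6.96 in Iso, against 6.56, 6.80 and 7.36 in Soc (-0.52, adjusted p = 0.000537). The groups overlapped at both ages. With the Gapdh ratio as a covariate the P60 difference was 0.06 (adjusted p = 0.89) and the P80 difference was -0.30 (adjusted p = 0.169). A second Kcnt1 probe set was called higher in Iso at P60 (0.26, adjusted p = 0.0289), so the Kcnt1 values at that age depend on the probe set. At P80 this second probe set was called lower in Iso, like the first (-0.59, adjusted p = 6.31e-06).

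The age comparison set P80 against P30 within each rearing. In Soc rats 19 of the 33 genes were called, 14 higher and 5 lower at P80 (57.6%, beside 49.7% of all tested probe sets, of which 26.2% higher and 23.5% lower). In Iso rats 17 were called, 12 higher and 5 lower (51.5%, beside 48.2%, of which 25.7% higher and 22.4% lower). The median change was 0.11 in Soc and 0.02 in Iso, beside 0.01 and 0.01 over all tested probe sets. A called change of over 0.5 log2 units was seen for 3 genes in Soc (9.09%, beside 8.83%) and 3 in Iso (9.09%, beside 7.33%). Cell type markers changed between these ages as well. Ttr changed by -3.96 in Soc and by -0.72 in Iso. Of 9 oligodendrocyte markers 7 were called lower in Soc and 6 in Iso, and 0 higher. Of 7 neuron markers 1 was called higher and 5 lower in Soc, and 2 and 2 in Iso. Of 9 astrocyte markers it was 1 and 4 in Soc, and 6 and 1 in Iso. The part of these cell types in the age changes was not tested. By their brightest probe sets the Kcna and Kcnab genes were mostly higher at P80, with 5 of 6 called higher and none lower in either rearing. The second probe sets of both tested Kcnab genes were called lower at P80. That of Kcnab1 changed by -0.93 in Soc and -0.46 in Iso, and that of Kcnab2 by -0.63 in Soc and -0.75 in Iso. Kcna1 had 6.42, 6.67 and 6.73 in Soc at P80, against 4.65, 5.44 and 5.87 in Soc at P30. All older samples lay above all younger ones, and the rise was 1.28 ± 0.15 (SE), 2.43-fold (adjusted p = 2.04e-09). In Iso rats Kcna1 had 5.82, 6.11 and 6.25 at P80, against 5.17, 5.67, 5.43, 5.89 and 5.43 at P30, with overlap (0.56, 1.47-fold, adjusted p = 0.00404). The Soc P30 median of Kcna1 and all its Iso P30 values but 5.89 lay below the signal limit of 5.72. Its mean over all arrays was 6.0, so Kcna1 passed the limit through the older groups, and its age changes start from weak signals.

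Kcna2 rose by 0.59 in Soc (9.13, 9.28 and 9.37 at P80, against 8.57, 8.72 and 8.78 at P30, adjusted p = 9.08e-15) and by 0.36 in Iso (8.82, 8.90 and 8.99 at P80, against 8.50, 8.56, 8.56, 8.51 and 8.61 at P30, adjusted p = 2.95e-08). The ages did not overlap in either rearing. Kcna6 rose by 0.40 in Soc (8.18, 8.31 and 8.48 at P80, against 7.84, 7.90 and 8.07 at P30, adjusted p = 4.45e-08), and its Iso value was -0.13, which did not pass (adjusted p = 0.057). Kcnt1 rose by 0.58 in Soc (6.56, 6.80 and 7.36 at P80, against 6.24, 6.28 and 6.39 at P30, adjusted p = 0.000133), or by 0.33 with the Gapdh ratio as a covariate (adjusted p = 0.156). The second Kcnt1 probe set changed by 0.07 in Soc (adjusted p = 0.602) and fell by 0.55 in Iso (adjusted p = 3.65e-05).

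Other changes were called in Iso, and that of Kcnab2 was called in Soc as well (0.23, adjusted p = 0.000603). Kcnc2 rose by 0.42 in Iso (9.35, 9.40 and 9.53 at P80, against 8.97, 8.97, 9.08, 9.10 and 8.86 at P30, adjusted p = 3.75e-08). Kcnab2 rose by 0.34 in Iso (9.54, 9.73 and 9.99 at P80, against 9.46, 9.28, 9.42, 9.24 and 9.58 at P30, adjusted p = 4.41e-06). The P80 samples of Kcnc2 lay above all P30 samples, and those of Kcnab2 overlapped them. Kcnk1 fell by 0.73 in Iso, 1.66-fold, with 6.26, 6.29 and 6.46 at P80, against 7.21, 7.01, 7.25, 6.73 and 7.04 at P30 (adjusted p = 1.78e-07). Kcnip3 fell by 0.63 in Iso, 1.54-fold, with 8.78, 8.85 and 9.08 at P80, against 9.54, 9.50, 9.55, 9.51 and 9.52 at P30 (adjusted p = 1.44e-08). Both lay lower at P80 without overlap. Kcnj3 fell by 0.42 in Iso (5.75, 5.91 and 6.12 at P80, against 6.51, 6.33, 6.15, 6.47 and 6.23 at P30, adjusted p = 0.00566), again without overlap. Its Soc change was -0.19, which did not pass (adjusted p = 0.204).

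Kcnh1 fell in both rearings, by 0.39 in Iso (6.80, 6.99 and 7.06 at P80, against 7.36, 7.41, 7.40, 7.23 and 7.38 at P30) and by 0.30 in Soc (7.02, 7.23 and 7.38 at P80, against 7.41, 7.50 and 7.63 at P30). The ages did not overlap, and the adjusted p-values were 1.08e-07 in Iso and 6.23e-06 in Soc. In Soc rats Kcnk2 fell by 0.50 (6.93, 7.14 and 7.23 at P80, against 7.51, 7.57 and 7.81 at P30, adjusted p = 1.5e-09). Kcnip1 fell by 0.24 in Soc (7.02, 7.10 and 7.17 at P80, against 7.19, 7.30 and 7.65 at P30, adjusted p = 0.00865). Its Iso change was -0.19, just short of the limit (adjusted p = 0.0509). Kcnmb4 fell by 0.22 in Soc (9.38, 9.52 and 9.58 at P80, against 9.65, 9.70 and 9.82 at P30, adjusted p = 7.93e-05). All older Soc samples lay below all younger ones for these 3 genes.

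The difference between the age changes, Iso minus Soc, was tested as 1 contrast in the same fit, a test added after the values had been seen. It was called for 10 of the 33 genes, 2 higher and 8 lower in Iso, beside 29.9% of all tested probe sets (16.1% higher and 13.8% lower). Kcnc2 (0.33, adjusted p = 0.00128) changed more upward in Iso. Kcnk2 (0.44, adjusted p = 8.02e-05) fell in Soc (-0.50), while its Iso change of -0.05 was not called (adjusted p = 0.486). Kcna1 (-0.72, adjusted p = 0.0112), Kcna2 (-0.22, adjusted p = 0.00888), Kcna6 (-0.53, adjusted p = 1.03e-06), Kcnc1, Kcnip3, Kcnj4, Kcnj6 and Kcnk1 changed more downward or less upward in Iso. The contrast was not called for Kcnab2 (adjusted p = 0.319), Kcnj3 (0.334), Kcnip1 (0.766), Kcnmb4 (0.11) or Kcnt1 (0.111). This contrast rests on the same P30 and P80 samples as the rearing differences at those ages. For Kcna1 it starts from P30 signals near or below the signal limit of 5.72.

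**Figure D3:**
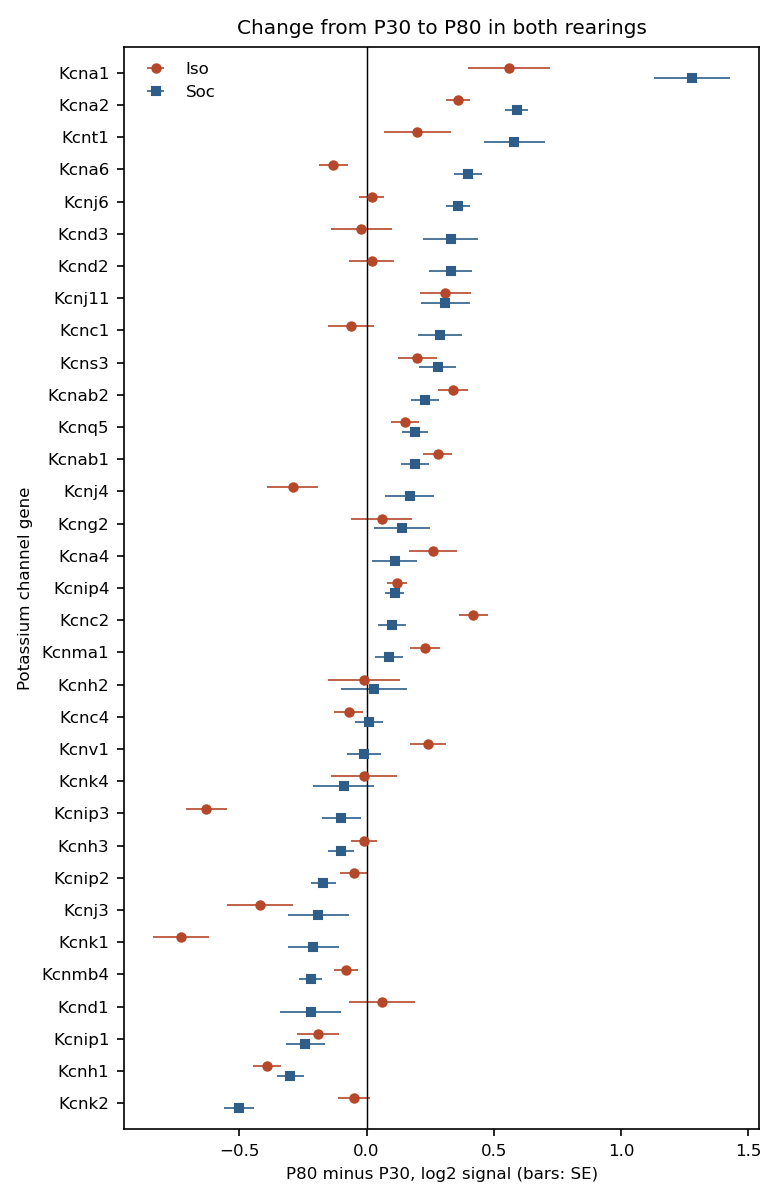
Change in log2 signal between P30 and P80 (P80 minus P30, points, bars are SE) of the 33 tested potassium channel genes, Iso as red circles drawn above Soc as blue squares, ordered by the Soc value. Kcna1 has the largest Soc value at 1.28 and an Iso value of 0.56, and Kcnk1 the lowest Iso value at -0.73.

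**Figure D4:**
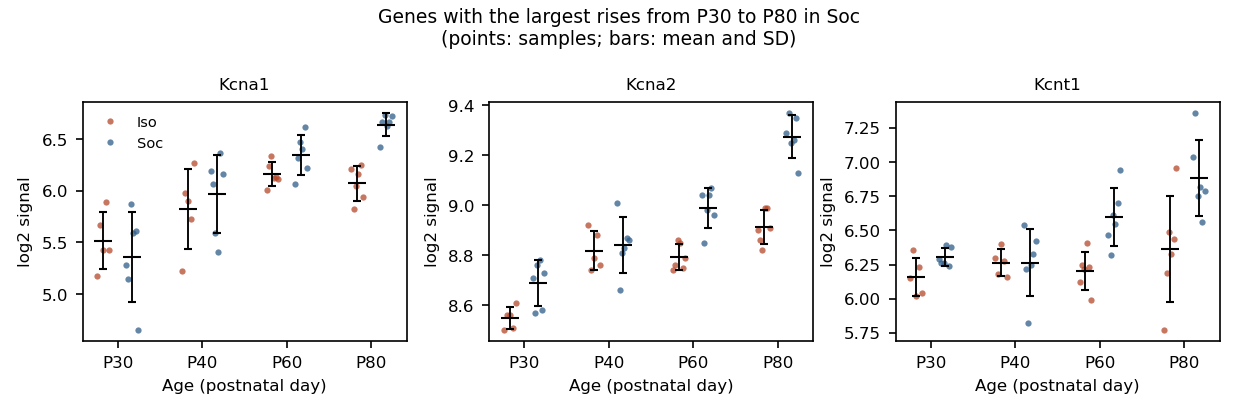
Log2 signal of each sample (points) with mean and SD (bars) at P30, P40, P60 and P80 for Kcna1, Kcna2 and Kcnt1, Iso in red at the left and Soc in blue at the right of each pair. The Soc values of Kcna1 lie between 4.65 and 5.87 at P30 and between 6.42 and 6.73 at P80.

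Among the 50 genes 13 had several probe sets, and 7 of the tested genes had a second probe set past the signal limit. The 2 probe sets of Kcnab1, Kcnip4 and Kcnt1 were called in opposite directions at P60, in 3 of the 7 pairs. The second Kcnab1 probe set (1369847_at) had 6.19, 6.46 and 6.62 in Iso at P60, against 5.36, 5.74 and 6.03 in Soc. Its groups did not overlap and it differed by 0.70 (adjusted p = 9.34e-07), while the brightest one differed by -0.22. The second Kcnip4 probe set (1370595_a_at) had 6.36, 6.47 and 6.49 in Iso, against 5.63, 5.74 and 5.84 in Soc, without overlap. It differed by 0.71 (adjusted p = 4.96e-08), against -0.09 for the brightest.

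The second Kcnab2 probe set (1397663_at) had 7.24, 7.27 and 7.37 in Iso at P60, against 5.77, 6.16 and 6.35 in Soc. Every Iso sample was higher, and the difference was 1.15 (adjusted p = 8.85e-14), or 1.45 with the Gapdh ratio as a covariate (adjusted p = 1.56e-06). It was lower in Iso at P40 (-0.71, adjusted p = 4.47e-07) and P80 (-0.25, adjusted p = 0.0273). The brightest Kcnab2 probe set differed by -0.07 at P60 (adjusted p = 0.271). In Soc rats the P80 against P30 changes of the 2 probe sets were called in opposite directions for Kcnab1, Kcnab2, Kcnd2 and Kcnip4, and in Iso rats for Kcnab1, Kcnab2 and Kcnip4. The brightest probe sets rose and the others fell in each of these. The values of these genes given above therefore hold for the named probe set, and which transcripts each probe set reads was not analysed here.

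**Figure D5:**
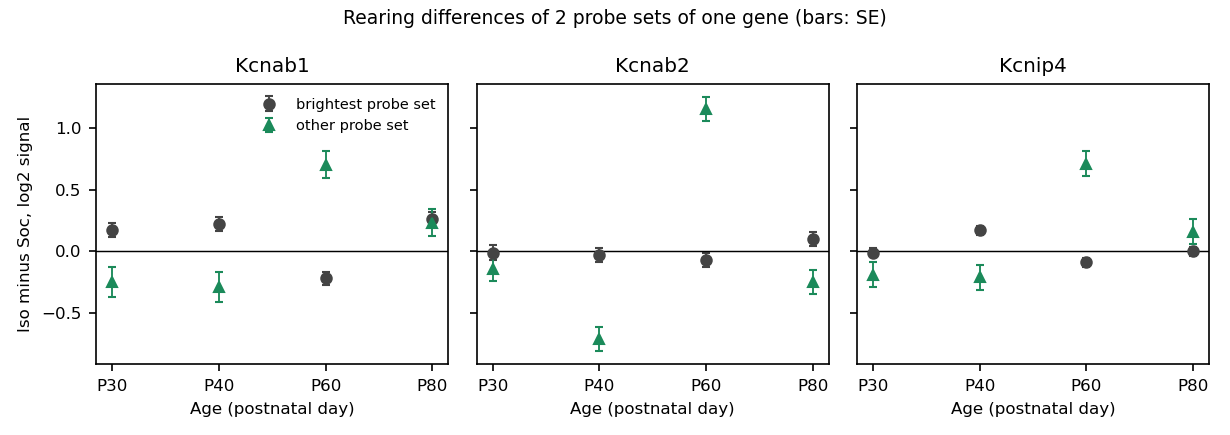
Iso minus Soc difference (log2 signal, bars are SE) at P30, P40, P60 and P80 for the brightest probe set (grey circles) and the second kept probe set (green triangles) of Kcnab1, Kcnab2 and Kcnip4. At P60 the second probe sets lie at 0.70, 1.15 and 0.71 and the brightest at -0.22, -0.07 and -0.09.

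Genes whose products bind potassium channels but are not named Kcn were listed for comparison, of which 20 of 25 measured passed the signal limit. They were called higher and lower in Iso in 1 and 5 cases at P30, 4 and 4 at P40, 6 and 7 at P60, and 4 and 8 at P80. In either direction 6, 8, 13 and 12 of the 20 were called, beside 19.9%, 28.3%, 53.1% and 47.7% of all tested probe sets. The median differences of the listed genes were -0.10, 0.00, 0.01 and -0.09. Lgi3, a secreted protein that joins Kcna channels through Adam22 and its relatives, was higher in Iso at P60 (0.79, adjusted p = 3.14e-10) and lower at P80 (-0.77, adjusted p = 7.05e-10). Amigo1, an auxiliary subunit of Kcnb channels, did likewise (0.29, adjusted p = 2.31e-06, and -0.35, adjusted p = 4.28e-08). Dlg4, a scaffold that clusters Kcna channels at synapses, differed by 0.78 at P30 and 0.42 at P60, higher in Iso in both cases (adjusted p = 2.98e-12 and 4.27e-07). Adam11, a membrane protein of nerve terminals, was lower at P80 (-0.75, adjusted p = 2.32e-10).

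The other 17 genes stayed below the signal limit and were not tested: Kcna5, Kcnab3, Kcne3, Kcnj2, Kcnj5, Kcnj8, Kcnj9, Kcnj10, Kcnj12, Kcnj14, Kcnj16, Kcnk3, Kcnk6, Kcnk15, Kcnq3, Kcns1 and Kcnv2. Their group means lay between 2.71 (Kcnj12 in Iso P80) and 5.78 (Kcns1 in Soc P40). Kcnj10, the main inward rectifier of astrocytes, had group means between 3.35 and 4.44, although all 9 measured astrocyte markers passed the limit. Kcnq3, the usual M-current partner of Kcnq5, had group means between 4.90 and 5.28. These low values describe the probe sets and do not show that the genes were silent.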

How the data were processed

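The deposited values are log2 signals of 20304 probe sets on 47 arrays, which the authors made with the MAS5 algorithm, per the submitters' processing notes; version and scaling target are not given in the sources used here. RNA (7 ug per sample, per the labels' protocols) was biotin-labelled. Trimmed mean signals (2%) lay between 156.6 and 161.4, so no further normalization was applied; the number of arrays limits the precision. Gene symbols came from the platform annotation, and all 50 matched the RefSeq rat gene table by gene number.

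The fit was limma 3.58.1 in R 4.3.3: 8 group means, 46 samples, a mean-dependent prior variance, two-sided tests on 38 residual degrees of freedom and Benjamini-Hochberg adjustment within each comparison, threshold 0.05. It was tested on simulated data. Alternatives were all 47 arrays apart, quantile normalization, no filter or a 60th-percentile filter, log2(signal + 16), no trend, the Gapdh ratio as covariate, a replicate block, only the groups compared, the probe set of smallest p, and leaving out each sample. The members and lists were chosen with earlier results of these data known. Values per sample were given for the 5 largest rises and falls among called genes per rearing comparison (4 for age), the 8 smallest interaction p-values and the smallest per family; of each list, up to 4 genes by p. Python 3.11.15 with matplotlib 3.10.9 drew the figures.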

Additional observations from a re-analysis of the deposited data

Results flagged for a closer look

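Of 96 gene and group combinations, 8 held a sample whose gap to the nearest other was large for the range of its group, a limit that chance passes in about 1 in 20 groups. Values are log2 signals. Kcnh1 had 7.23 in Iso P30 array 5, with the others between 7.36 and 7.41. Kcnq5 had 9.30 in Iso P40 array 2 (others 9.04 to 9.10). Kcnk1 had 6.46 in Iso P80 array 5 (others 6.26 to 6.32). In Soc rats, Kcnip1 had 7.65 in P30 array 2 (others 7.19 to 7.36), Kcnj3 had 6.49 in P40 array 2 (others 6.21 to 6.28), Kcnc2 had 9.54 in P60 array 2 (others 9.35 to 9.37), Kcnab1 had 8.51 in P60 array 6 (others 8.68 to 8.76) and Kcna1 had 6.42 in P80 array 1 (others 6.63 to 6.73).

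The rearing difference varied with age, by limma's moderated F test of the interaction with Benjamini-Hochberg adjustment, for Kcnj6 (adjusted p = 1.74e-14), Kcna6 (3.89e-11), Kcnc4 (5.18e-11), Kcnma1 (2.79e-10), Kcnh1 (1e-09), Kcnmb4 (1.43e-09), Kcnip3 (2.04e-09), Kcnc2 (8.01e-09), Kcnk1 (4.06e-07), Kcnd2 (0.000908) and Kcnq5 (0.00318). These genes were picked by the smallest p of this same test, among all tested members or within a family, so the flag is no separate support. Of all tested probe sets 72.2% were called in this test.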

How the results depend on the processing

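With the Gapdh ratio as a covariate 5 potassium channel genes were called at P30 (0 higher and 5 lower in Iso, against 8 in all otherwise) and 6 for the mean over the ages (against 13), and with only the groups compared 5 were called at P30. The covariate turned the sign of Kcnt1 at P60 (0.06), of Kcnmb4 at P80 (0.01) and, for the mean over the ages, of Kcnab1 (-0.03), Kcnip2 (-0.01), Kcnmb4 (0.02) and Kcns3 (-0.01). The cause was not tested. With 1 sample left out the counts ran between 4 and 7 at P30, 10 and 13 at P40, 17 and 18 at P60, 16 and 18 at P80, 13 and 15 for the mean, 23 and 26 for the interaction, 17 and 20 for P60 against P40, 19 and 21 for P80 against P30 in Soc and 15 and 18 in Iso. The other settings kept every other count within 1.5 times. Of 1158 values of called genes under those settings 48 lost the call with the same sign, 32 of them with the covariate, and the 6 that turned sign lost it too.

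Iso and Soc samples of the same number and age did not clearly deviate together over all tested probe sets (correlations between -0.089 and 0.086 over 22 pairs). A weak shared effect, or one across ages, could escape this check. The labels do not say what the number marks, and the main fit did not pair samples by it. With the replicate block 8 genes were called at P30, 12 at P40, 18 at P60, 17 at P80, 14 for the mean, 18 for P60 against P40, 19 for P80 against P30 in either rearing and 25 for the interaction.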

Other observations

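G proteins and receptors that gate GIRK, M-current and two-pore channels differed between the rearings as well. Of 19 kept genes of that list, 1 was called higher and 7 lower in Iso at P30, 2 and 8 at P40, 11 and 3 at P60, and 6 and 5 at P80, with median differences of -0.14, -0.13, 0.35 and 0.02. In either direction 8, 10, 14 and 11 of the 19 were called, beside 19.9%, 28.3%, 53.1% and 47.7% of all tested probe sets. Gnao1, the main G protein alpha subunit of neurons, was lower in Iso at P40 (-0.40, limma adjusted p = 1.56e-11), higher at P60 (0.48, 5.47e-15) and lower at P80 (-0.22, 1.91e-06). Gng2, a gamma subunit whose complex with beta opens GIRK channels, was lower at P40 (-0.27, adjusted p = 0.000484) and higher at P60 (0.73, 1.48e-14). Gnb2, a beta subunit, was lower at P40 (-0.40, adjusted p = 9.91e-08), higher at P60 (0.58, 2.95e-13) and lower at P80 (-0.49, 3.46e-11).

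Genes of potassium and chloride transport, 13 of them kept, were called higher in 0 and lower in 6 cases at P30, 2 and 3 at P40, 6 and 3 at P60, and 3 and 2 at P80. In either direction 6, 5, 9 and 5 of the 13 were called, beside 19.9%, 28.3%, 53.1% and 47.7% of all tested probe sets. Fxyd7, a regulator of the sodium pump in neurons, was higher in Iso at P60 (0.76, limma adjusted p = 1.42e-14). Slc12a2, a sodium, potassium and chloride cotransporter, was lower in Iso at P60 (-0.35, adjusted p = 4.27e-10). Atp1b2, a pump subunit of glia, was lower at P30 (-0.28, adjusted p = 1.01e-07). Background shares of all tested probe sets called were those given for each age beside the potassium channel genes.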
